A study of Mus musculus with 10 samples.

Results

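The transcripts described here are those of 4 chemokines (Ccl20, Cxcl2, Cxcl16 and Ccl6), the neutrophil chemokine receptor Cxcr2, the cytokine Il19 and the signalling inhibitor Socs3 in mouse skin. They were picked by gene name, and all 7 were among the 9779 genes present in both deposited tables of mouse genes and among the 5245 genes tested. RNA was measured in ear skin of c57/Bl6 mice aged 6 to 8 weeks. In the DMSO group (n = 4), topical imiquimod, which activates Toll-like receptors and brings on psoriasis-like inflammation in mice, was applied with DMSO as the solvent. Skin of the benzamil group (n = 4) had imiquimod and benzamil, a blocker of the epithelial sodium channel related to amiloride. The untreated group (n = 2) received neither, and treatment lasted 6 days. The sample labels name ear skin throughout, whereas the design text of the series names back skin for the untreated control, so body site and treatment cannot be told apart in comparisons with that group. Whether libraries of a group come from separate animals is not stated, so the p-values reflect only the spread between the samples at hand, and this may be technical.

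Chemokines are small secreted proteins that steer white blood cells along gradients through G protein-coupled receptors. In inflamed skin, keratinocytes stimulated by IL-17 and IL-1 family cytokines release CCL20, which attracts CCR6-bearing T cells and dendritic cells, and CXCL2, which attracts neutrophils through CXCR2. IL-19, a cytokine of the IL-20 subfamily, acts on keratinocytes through the paired receptor chains IL20RA and IL20RB and the transcription factor STAT3, and SOCS3 is a STAT3-induced inhibitor that binds the gp130 receptor and blocks its signalling.

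These genes were seen through few reads. Whole reads per library were recovered from the authors' log2 values, and levels are given as CPM, reads scaled to a common total of the tested genes' reads after TMM scaling. Library totals ran from 71144 reads in the untreated group to 935714 in DMSO library 1. One Cxcl2 or Ccl20 read more raised the level by 1.04 CPM in the deepest library, DMSO library 1, but by 14.8 CPM in untreated library 2. All 10 libraries together held between 76 reads (Socs3) and 174 reads (Cxcl2) of each gene, and DMSO library 1 alone held 45.4% (Cxcl2) to 65.8% (Il19) of a gene's reads in the DMSO group. Ribosomal RNA genes took 22.1% to 28.8% of the reads with DMSO, 31.0% to 45.7% with benzamil, and 34.2% and 38.6% in untreated skin. Intervals below are exact 95% Poisson or binomial intervals and cover counting error only.

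The genes lie on 3 chromosomes of mm10 (GENCODE M21). Cxcr2 (chromosome 1, 74153989 to 74161246), Ccl20 (chromosome 1, 83116766 to 83119167) and Il19 (chromosome 1, 130932656 to 130940115) are on chromosome 1. Cxcl2 is on chromosome 5 (90903871 to 90905938). Cxcl16 (70453983 to 70459984), Ccl6 (83587882 to 83593087) and Socs3 (117966079 to 117970047) are on chromosome 11. Cxcl16 overlaps Zmynd15 and Ccl6 overlaps E230016K23Rik, both on the opposite strand, and whether the counting used strand is not given in the sources used here, so reads of the overlapping partners may not be told apart.

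RefSeq promoter entries (GRCm38.p6) were found for 6 of the 7 genes. The 250 bases before the RefSeq start site are shown for the 5 genes that were called lower with benzamil. Matches to the searched motifs are in capitals. RefSeq start sites can differ from the GENCODE positions above. The Socs3 window lies inside its GENCODE span, and those of Cxcl2 and Cxcr2 run past the GENCODE start. The motifs were chosen after these sequences had been read. They were GGGAANNNC, letters found in many NF-kappaB sites, TTCNNNGAA, letters found in many STAT sites, and the AP-1-like TGANTCA, each searched on both strands. The windows are chr1:83116516-83116765 (plus strand) for Ccl20, chr5:90903649-90903898 (plus strand) for Cxcl2, chr1:74153744-74153993 (plus strand) for Cxcr2, chr1:130940116-130940365 (minus strand) for Il19 and chr11:117969367-117969616 (minus strand) for Socs3.
Ccl20: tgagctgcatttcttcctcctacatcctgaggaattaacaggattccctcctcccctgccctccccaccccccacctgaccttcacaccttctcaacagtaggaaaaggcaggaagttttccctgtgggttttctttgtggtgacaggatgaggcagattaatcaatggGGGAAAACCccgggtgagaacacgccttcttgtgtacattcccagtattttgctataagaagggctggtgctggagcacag
Cxcl2: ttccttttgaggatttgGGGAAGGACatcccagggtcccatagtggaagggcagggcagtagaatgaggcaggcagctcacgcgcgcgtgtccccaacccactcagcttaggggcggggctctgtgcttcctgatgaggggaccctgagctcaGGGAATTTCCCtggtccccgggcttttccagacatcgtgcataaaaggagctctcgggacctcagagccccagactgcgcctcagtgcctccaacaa
Cxcr2: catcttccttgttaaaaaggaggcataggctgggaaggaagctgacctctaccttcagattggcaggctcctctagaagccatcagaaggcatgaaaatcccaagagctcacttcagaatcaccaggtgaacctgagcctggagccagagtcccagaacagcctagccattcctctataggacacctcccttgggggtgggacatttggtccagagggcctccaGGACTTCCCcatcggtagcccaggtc
Il19: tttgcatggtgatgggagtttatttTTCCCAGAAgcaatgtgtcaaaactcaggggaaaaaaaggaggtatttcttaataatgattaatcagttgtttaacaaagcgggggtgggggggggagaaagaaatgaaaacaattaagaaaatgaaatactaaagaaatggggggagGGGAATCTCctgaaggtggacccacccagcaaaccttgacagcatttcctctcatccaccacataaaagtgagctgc
Socs3: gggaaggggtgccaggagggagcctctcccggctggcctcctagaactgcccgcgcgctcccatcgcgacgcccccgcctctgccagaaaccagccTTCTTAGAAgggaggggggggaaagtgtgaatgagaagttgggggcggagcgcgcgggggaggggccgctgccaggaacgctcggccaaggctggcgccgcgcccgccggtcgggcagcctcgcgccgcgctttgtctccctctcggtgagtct
The NF-kappaB-like letters stood at -81 to -73 from the start site in Ccl20, at -77 to -69 in Il19 and, on the other strand, at -26 to -18 in Cxcr2. Cxcl2 held them at -233 to -225 and at -97 to -89, the latter overlapping a match on the other strand at -95 to -87. So short a motif is common: these letters are in 16.5% of 32851 mouse promoter windows of this length. The STAT-like letters stood at -225 to -217 in Il19 and at -154 to -146 in Socs3 and are in 7.02% of windows. The AP-1-like letters were in 0 of the 6 windows and in 6.75% of all, and the window of Ccl6 held no match to any of the 3 motifs.

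The comparison of benzamil with DMSO asked how the channel blocker changed gene expression in imiquimod-treated skin. Ccl20, Cxcl2, Cxcr2, Il19 and Socs3 fell with benzamil, by log2 fold changes of -1.88 to -4.64, whereas Cxcl16 and Ccl6 did not pass the test. That is 5 of 7 genes called lower and 0 called higher, at a Benjamini-Hochberg adjusted p under 0.05 over all 5245 genes in the quasi-likelihood test of edgeR. Of all genes tested, 12.1% were called lower and 9.91% higher. The count is a description of the chosen genes: 6 of the 7, all but Ccl6, reached the filter on low reads through the DMSO libraries alone, so a gene absent with DMSO could not have been among them. Fewer cells of a type and less RNA per cell cannot be told apart in these bulk samples.

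**Figure D1:**
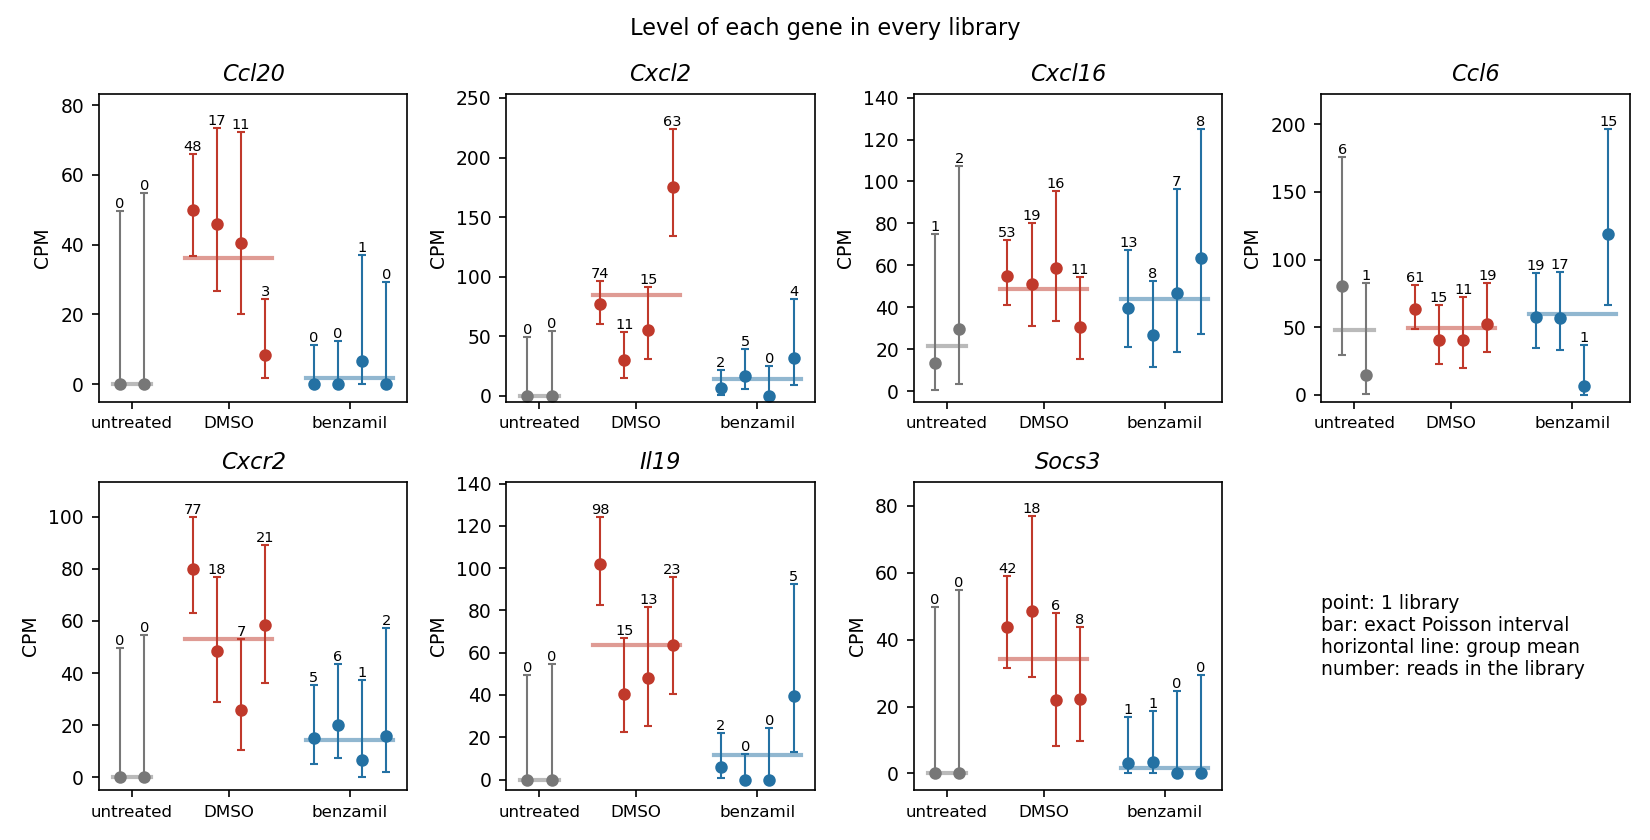
CPM of each gene (vertical axis) in every library of the 3 groups, with its 95% Poisson interval as a bar, its reads as a number and the group mean as a horizontal line. Ccl20, Cxcr2, Il19 and Socs3 are lower in all 4 benzamil libraries than in any DMSO library, while Cxcl16 and Ccl6 overlap between the groups and are read in untreated skin as well.

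Among the ligands, Ccl20 came nearest to absence. It has up to 4 exons in an annotated transcript and encodes the only known chemokine ligand of CCR6. DMSO libraries 1 to 4 held 48, 17, 11 and 3 Ccl20 reads (49.9, 45.9, 40.5 and 8.33 CPM), benzamil libraries 1 to 4 held 0, 0, 1 and 0, and both untreated libraries held 0. DMSO library 4 was well under the other 3, and still above benzamil library 3, whose single read was worth 6.67 CPM. The group means were 36.1 ± 18.9 CPM with DMSO and 1.67 ± 3.34 CPM with benzamil (SD, n = 4 each). The change was -4.64 ± 0.91 on the log2 scale (edgeR adjusted p = 0.000795). The reads pooled over each group gave a ratio with a counting interval of 6.34 to 1455, so its size is known only within wide bounds, and without benzamil library 3 the log2 fold change was -6.61.

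Cxcl2 (up to 4 exons in an annotated transcript) encodes a ligand of CXCR2 that recruits neutrophils. It had 74, 11, 15 and 63 reads in DMSO libraries 1 to 4 (76.9, 29.7, 55.2 and 174.9 CPM). Benzamil libraries 1 to 4 held 2, 5, 0 and 4 reads (6.07, 16.7, 0 and 31.8 CPM), and both untreated libraries held 0. The groups overlapped, since benzamil library 4 at 31.8 CPM lay above DMSO library 2 at 29.7 CPM, and DMSO library 4 stood above all others. The means were 84.2 ± 63.5 and 13.6 ± 13.9 CPM (SD, n = 4 each). Cxcl2 fell by 2.74 ± 0.58 on the log2 scale (edgeR adjusted p = 0.00156), and the pooled reads were 6.83 times higher with DMSO (counting interval 3.72 to 13.9).

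The proportion of the 2 called chemokines stood apart in DMSO library 4 alone, which had 3 Ccl20 reads, by intervals that cover counting error only. Cxcl2 reads per Ccl20 read were 1.54 (exact interval 1.06 to 2.27), 0.647 (0.274 to 1.46) and 1.36 (0.585 to 3.28) in DMSO libraries 1 to 3, and 21 (6.87 to 105) in DMSO library 4. DMSO library 4 thus had the highest Cxcl2 and the lowest Ccl20 level of its group, and the interval of its ratio was apart from the other 3. For the Ccl20 level alone, its counting interval (1.72 to 24.3 CPM) overlapped that of DMSO library 3 (20.2 to 72.4 CPM).

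The other chemokines among the 7 genes gave no call. Cxcl16 encodes a membrane-anchored chemokine that is shed to attract CXCR6-bearing T cells. DMSO libraries 1 to 4 held 53, 19, 16 and 11 Cxcl16 reads (55.1, 51.3, 58.9 and 30.5 CPM), benzamil libraries 13, 8, 7 and 8 (39.4, 26.7, 46.7 and 63.5 CPM), and untreated libraries 1 and 2 (13.5 and 29.7 CPM). The treated groups overlapped over most of their range, with benzamil library 4 the highest of all. The means were 48.9 ± 12.7 CPM with DMSO and 44.1 ± 15.4 CPM with benzamil (SD, n = 4 each), a log2 fold change of -0.28 ± 0.33 (edgeR adjusted p = 0.585). The pooled ratio of DMSO to benzamil had a counting interval of 0.857 to 1.91.

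Ccl6 encodes a CC chemokine of myeloid cells that binds CCR1. DMSO libraries 1 to 4 held 61, 15, 11 and 19 Ccl6 reads (63.4, 40.5, 40.5 and 52.7 CPM), benzamil libraries 19, 17, 1 and 15 (57.6, 56.8, 6.67 and 119 CPM), and untreated libraries 6 and 1 (80.8 and 14.8 CPM). Benzamil libraries 3 and 4 were the lowest and the highest of all 10, and every DMSO value lay between them. The means were 49.3 ± 11.0, 60.0 ± 46.0 (SD, n = 4 each) and 47.8 ± 46.6 CPM (SD, n = 2) in the DMSO, benzamil and untreated groups. The log2 fold change of benzamil over DMSO was 0.17 ± 0.38 (edgeR adjusted p = 0.792), and it was -0.17 without benzamil library 4. The pooled ratio of benzamil to DMSO had a counting interval of 0.749 to 1.50.

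Cxcr2 is the receptor of CXCL2 and related chemokines and is carried mainly by neutrophils. Cxcr2 had 77, 18, 7 and 21 reads in DMSO libraries 1 to 4 (80.0, 48.6, 25.8 and 58.3 CPM), benzamil libraries 5, 6, 1 and 2 (15.2, 20.0, 6.67 and 15.9 CPM), and the untreated libraries 0. All 4 benzamil libraries lay below the lowest DMSO library. The means were 53.2 ± 22.5 and 14.4 ± 5.61 CPM (SD, n = 4 each). Cxcr2 fell by 1.88 ± 0.43 on the log2 scale (edgeR adjusted p = 0.00312), and the pooled reads were 4.05 times higher with DMSO (counting interval 2.32 to 7.62).

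Other neutrophil markers were read at low levels beside it. Of 23 listed neutrophil markers, 8 were in both tables and 0 reached the filter for testing. Their summed level was 48.6 to 125 CPM in DMSO libraries (205 reads), 15.9 to 60.7 CPM in benzamil libraries (40 reads) and 0 and 13.5 CPM in untreated ones (1 read). The resistin-like gene Retnlg and the receptor gene Clec4e were at 0 reads in all benzamil libraries, and 7 of the 8, all but Il1r2, were at 0 in untreated skin. With DMSO these 7 pooled to 5.09 (Clec4e) to 20.9 CPM (Itgam). In untreated skin, 3 reads over the group would be 21.2 CPM, so such levels could go unseen and absence is not shown. Il1r2, the decoy receptor of IL-1, averaged 22.3 ± 7.76 CPM with DMSO (45 reads) and 26.3 ± 13.6 CPM with benzamil (28 reads; SD, n = 4 each). Without the filter, where 7.81% of 9779 genes were called lower, Itgam (-2.14 ± 0.69, edgeR adjusted p = 0.0310) and Retnlg (23 reads against 0, edgeR adjusted p = 0.0206) passed. The rest of the 8 did not: Clec4e, Acod1, Hdc, Fpr2 and Trem1 (edgeR adjusted p = 0.0807, 0.0902, 0.107, 0.129 and 0.177) and Il1r2 (0.37 ± 0.43, edgeR adjusted p = 0.647). The part of neutrophil number in the change of Cxcr2 was not tested.

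Il19 showed the widest spread between benzamil libraries of the called genes, set by 1 library. Il19 had 98, 15, 13 and 23 reads in DMSO libraries 1 to 4 (101.8, 40.5, 47.8 and 63.8 CPM), benzamil libraries 2, 0, 0 and 5 (6.07, 0, 0 and 39.7 CPM), and the untreated libraries 0. Benzamil library 4 lay just under DMSO library 2, and the other 3 were at or near 0. The means were 63.5 ± 27.3 and 11.4 ± 19.1 CPM (SD, n = 4 each). Il19 fell by 3.06 ± 0.60 on the log2 scale (edgeR adjusted p = 0.0008), and by 4.55 without benzamil library 4. In the authors' deposited table, from their DESeq2 analysis, the Il19 change was -1.03 with an adjusted p of 0.0611. Its Wald score (-2.68) and standard error (0.41) do not multiply to that change, so its size is not compared with edgeR's. DESeq2 on the recovered reads gave an adjusted p of 0.0875.

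Socs3, with up to 2 exons in an annotated transcript, was nearly absent with benzamil. Its reads numbered 42, 18, 6 and 8 in DMSO libraries 1 to 4 (43.6, 48.6, 22.1 and 22.2 CPM), benzamil libraries 1, 1, 0 and 0 (3.03, 3.34, 0 and 0 CPM), and the untreated libraries 0. The highest benzamil level was under every DMSO level, and the counting intervals of the 4 DMSO libraries overlap. The means were 34.1 ± 14.0 and 1.59 ± 1.84 CPM (SD, n = 4 each). Socs3 fell by 3.80 ± 0.72 on the log2 scale (edgeR adjusted p = 0.000598), with a counting interval of the pooled ratio of 4.55 to 143.

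The 5 genes called lower with benzamil were also summed, so a gap between the treated groups follows from that choice. Taking Ccl20, Cxcl2, Cxcr2, Il19 and Socs3 together, DMSO libraries 1 to 4 summed to 352, 213, 191 and 328 CPM (339, 79, 52 and 118 reads). Benzamil libraries 1 to 4 summed to 30.3, 40.1, 13.3 and 87.4 CPM (10, 12, 2 and 11 reads), and both untreated libraries to 0. Benzamil library 4 had the highest sum of its group and benzamil library 3 the lowest. All 7 genes summed to 471, 305, 291 and 411 CPM in DMSO libraries 1 to 4. Their sums were 127, 124, 66.7 and 270 CPM in benzamil libraries 1 to 4, and 94.2 and 44.5 CPM in untreated skin. Every DMSO library held reads of all 7 genes, the benzamil libraries of 6, 5, 4 and 5 genes, and each untreated library of 2 genes, Cxcl16 and Ccl6.

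An exact permutation test of the difference in mean CPM, two-sided, gave p = 0.0286 for Ccl20, Cxcr2, Il19 and Socs3, the smallest that 4 against 4 libraries allow. Cxcl2 gave an exact p = 0.0571, and Cxcl16 and Ccl6 an exact p = 0.686. After Benjamini-Hochberg adjustment over the 21 exact tests of these genes, the values were 0.15, 0.233 and 0.9. None could have passed: with all 7 genes at the limit of 4 against 4 libraries, the adjusted p would be 0.0857. The 4 genes whose groups did not overlap, all lower with benzamil, compare with 13.4% of tested genes. Nothing is read from this count, since these 4 chosen genes reached the filter through the DMSO libraries alone.

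In the authors' deposited table for benzamil over DMSO, 6.43% of 7555 genes with an adjusted p were lower. The adjusted p was 0.00145 for Ccl20, 0.000654 for Cxcl2, 0.0114 for Cxcr2 and 0.00334 for Socs3 in the authors' deposited table. Cxcl16 (0.752) and Ccl6 (0.836) missed the threshold in the authors' deposited table, as Il19 did. The log2 fold changes of the authors' deposited table ran from -1.86 (Ccl20) to 0.15 (Ccl6). For Ccl20 too, the Wald score (-4.06) and standard error (0.41) do not multiply to the change. These sizes are therefore not compared with those of edgeR.

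Around these genes, most chemokines were too low to test. Of 38 listed chemokines, 14 were in both tables and 6 were tested: 2 fell (Ccl20 and Cxcl2) and 0 rose, against 12.1% lower and 9.91% higher among all tested genes. The 2 that fell are themselves chosen genes. The median log2 fold change of the list was -0.12, against -0.01 over all tested genes. Ccl27a, a keratinocyte chemokine that attracts skin-homing T cells, averaged 5.05 ± 3.47 CPM in DMSO libraries, 19.8 ± 13.3 CPM in benzamil libraries (SD, n = 4 each) and 95.0 ± 96.3 CPM in untreated skin (SD, n = 2). Its change of 1.85 ± 0.70 with benzamil missed the threshold (edgeR adjusted p = 0.0593). Cxcl14, a chemokine of normal epidermis, changed by 0.04 ± 0.45 (edgeR adjusted p = 0.967).

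Below the filter, several chemokines had reads almost only in DMSO libraries, and these are named after their values were seen. The neutrophil chemokines Cxcl1, Cxcl3 and Cxcl5 held 32, 10 and 13 reads with DMSO, 4, 0 and 1 with benzamil, and 0 in untreated skin. Pooled over the group, that was 16.3, 5.09 and 6.62 CPM with DMSO and 4.42, 0 and 1.10 CPM with benzamil. In untreated skin, 3 reads over the group would be 21.2 CPM, so such levels could go unseen there. None of these 3 passed without the filter (edgeR adjusted p = 0.155, 0.104 and 0.232). Ccl4, a chemokine of activated myeloid cells and lymphocytes, held 11, 2, 6 and 10 reads in the DMSO libraries and 0 in every other library. It was 4.45-fold lower with benzamil if 3 reads (3.31 CPM) are taken as the limit of the whole group. The upper counting limit of 0 reads is 4.08 CPM, so the fold could be lower. Ccl4 passed without the filter (edgeR adjusted p = 0.00399).

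**Figure D2:**
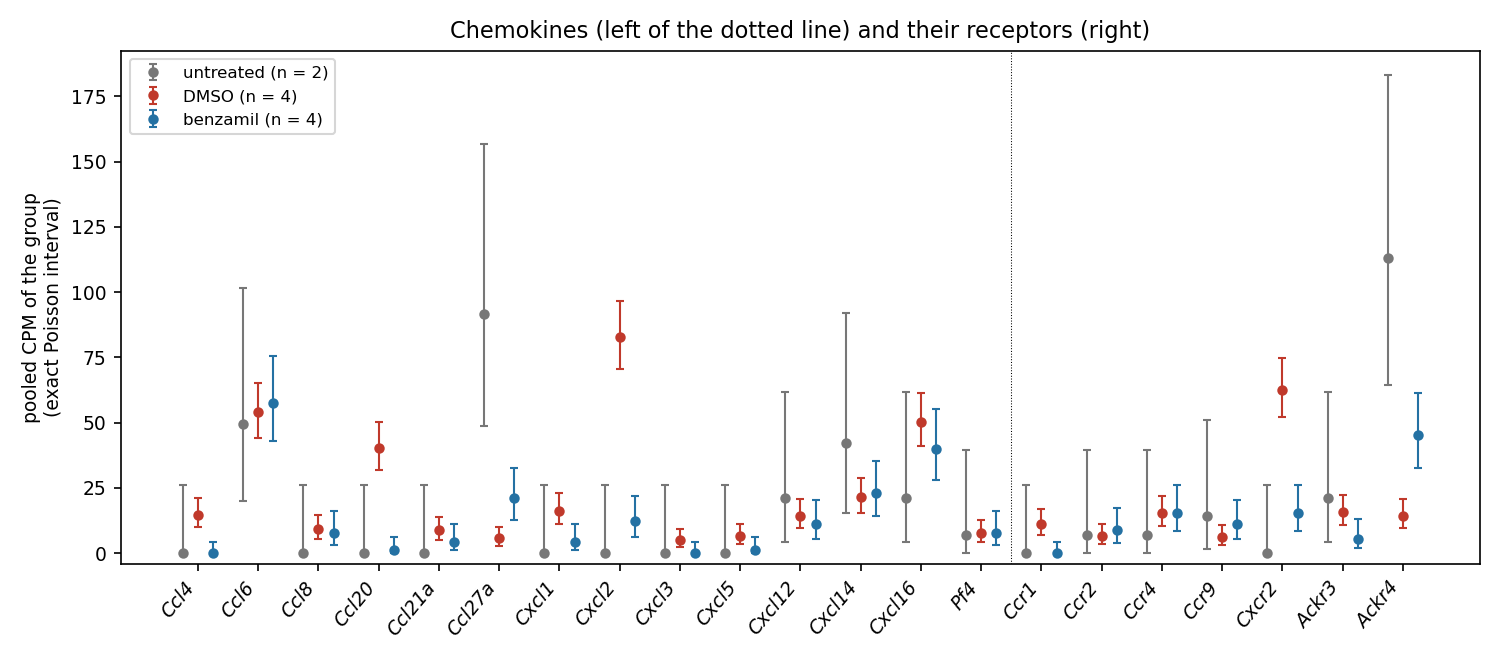
Pooled CPM of each group (vertical axis) for the 14 listed chemokines and 7 listed receptors present in both tables, with 95% Poisson intervals over the reads of the group. Ccl20, Cxcl2 and Cxcr2 stand out with DMSO, Ccl6 and Cxcl16 lie near each other in the treated groups, and Ccl27a and Ackr4 are highest in untreated skin.

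Of 23 listed chemokine receptors, 7 were in both tables and 2 were tested, Cxcr2, which fell, and Ackr4, which rose. Among all tested genes, 12.1% were called lower and 9.91% higher. Ackr4 is a scavenging receptor that takes up CCL19, CCL21 and CCL25. DMSO libraries 1 to 4 held 12.5, 10.8, 11.0 and 25.0 CPM of Ackr4, benzamil libraries 36.4, 56.8, 73.4 and 7.94 CPM, and untreated libraries 94.2 and 133 CPM. Benzamil library 4 lay with the DMSO libraries, apart from the other 3. Ackr4 rose by 1.61 ± 0.45 on the log2 scale (edgeR adjusted p = 0.0115), and the call was lost without benzamil library 2 (0.0600) or 3 (0.0577), with limma (0.105) and with all libraries thinned to the smallest (0.249). Ccr4, a receptor of skin-homing T cells, was too low to test, with 30 reads in DMSO, 14 in benzamil and 1 in untreated libraries. The untested Ccr1, a receptor of CCL6 and CCL4 among others that is named after its values were seen, held 22 reads with DMSO and 0 with benzamil (edgeR adjusted p = 0.0105 without the filter).

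The receptor chains for IL-19 gave no call. Of 11 listed genes of the IL-10 and IL-20 family, 5 were in both tables and 3 were tested, of which Il19 fell and 0 rose. Il19 is itself a chosen gene, and 12.1% of all tested genes were lower and 9.91% higher. Il20rb averaged 99.7 ± 19.0 CPM in DMSO libraries and 151 ± 40.2 CPM in benzamil libraries (SD, n = 4 each), a change of 0.64 ± 0.25 that missed the threshold (edgeR adjusted p = 0.0627). Il20ra, with 9 and 10 reads in these groups, changed by 1.11 ± 0.74 (edgeR adjusted p = 0.295). Il22ra2, a soluble receptor that binds IL-22, missed the filter with 37 reads in DMSO, 4 in benzamil and 1 in untreated libraries. Its mean levels were 16.2, 4.26 and 7.42 CPM in these groups.

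Other genes of STAT3 and gp130 signalling were lower in part. Of 8 listed SOCS family genes, 7 were in both tables and 3 were tested: Socs3 and Socs6 (-1.48 ± 0.45, edgeR adjusted p = 0.0190) fell, and Socs4 did not pass (-0.50 ± 0.35, edgeR adjusted p = 0.311). Socs3 is itself a chosen gene, and 12.1% of all tested genes were lower. The Socs6 call was lost without DMSO library 1 (0.134), benzamil library 1 (0.0706) or benzamil library 2 (0.0532), and with all libraries thinned (0.714) or the treated ones thinned (0.0610). Of 20 listed gp130 and STAT3 pathway genes, 16 were in both tables and 11 were tested: 4 fell and 0 rose, against 12.1% of tested genes lower and 9.91% higher, yet the list's median was 0.40 on the log2 scale. Stat3 itself fell from 389 ± 59.8 to 146 ± 34.4 CPM (SD, n = 4 each), by 1.39 ± 0.21 on the log2 scale (edgeR adjusted p = 5.87e-05), with no overlap between the groups. The others were Osmr, the oncostatin M receptor chain (-1.60 ± 0.47, edgeR adjusted p = 0.0170, and 0.0586 without benzamil library 2), the AP-1 member Fosl2 (-1.57 ± 0.35, edgeR adjusted p = 0.00231) and the transcription factor Cebpb (-0.96 ± 0.24, edgeR adjusted p = 0.0054). Il6st, which encodes gp130, was not called (0.54 ± 0.21, edgeR adjusted p = 0.0694), nor was the kinase Jak1 (0.11 ± 0.18, edgeR adjusted p = 0.708). Fosl2 (0.150) and Osmr (0.186) lost their calls with all libraries thinned, and Cebpb (0.0712) with the treated libraries thinned.

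Of 13 listed genes of IL-17 receptor signalling, 7 were in both tables and 5 were tested, of which 2 fell and 0 rose, with a median of -0.30, against 12.1% lower and 9.91% higher among all tested genes. Zc3h12a, which encodes the RNase Regnase-1, fell by 1.90 ± 0.39 on the log2 scale (edgeR adjusted p = 0.000993). Nfkbiz, which encodes the nuclear cofactor I-kappaB-zeta, fell by 0.84 ± 0.23 on the log2 scale (edgeR adjusted p = 0.00959, and 0.0525 without benzamil library 2). Zc3h12a lost its call with all libraries thinned (0.0765) and Nfkbiz with the treated libraries thinned (0.0863). Il17rc, a chain of the IL-17 receptor, did not pass (-0.30 ± 0.36, edgeR adjusted p = 0.583). The motif matches shown above for Ccl20, Cxcl2, Cxcr2 and Il19 are letters only, and binding was not measured in these samples.

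**Figure D3:**
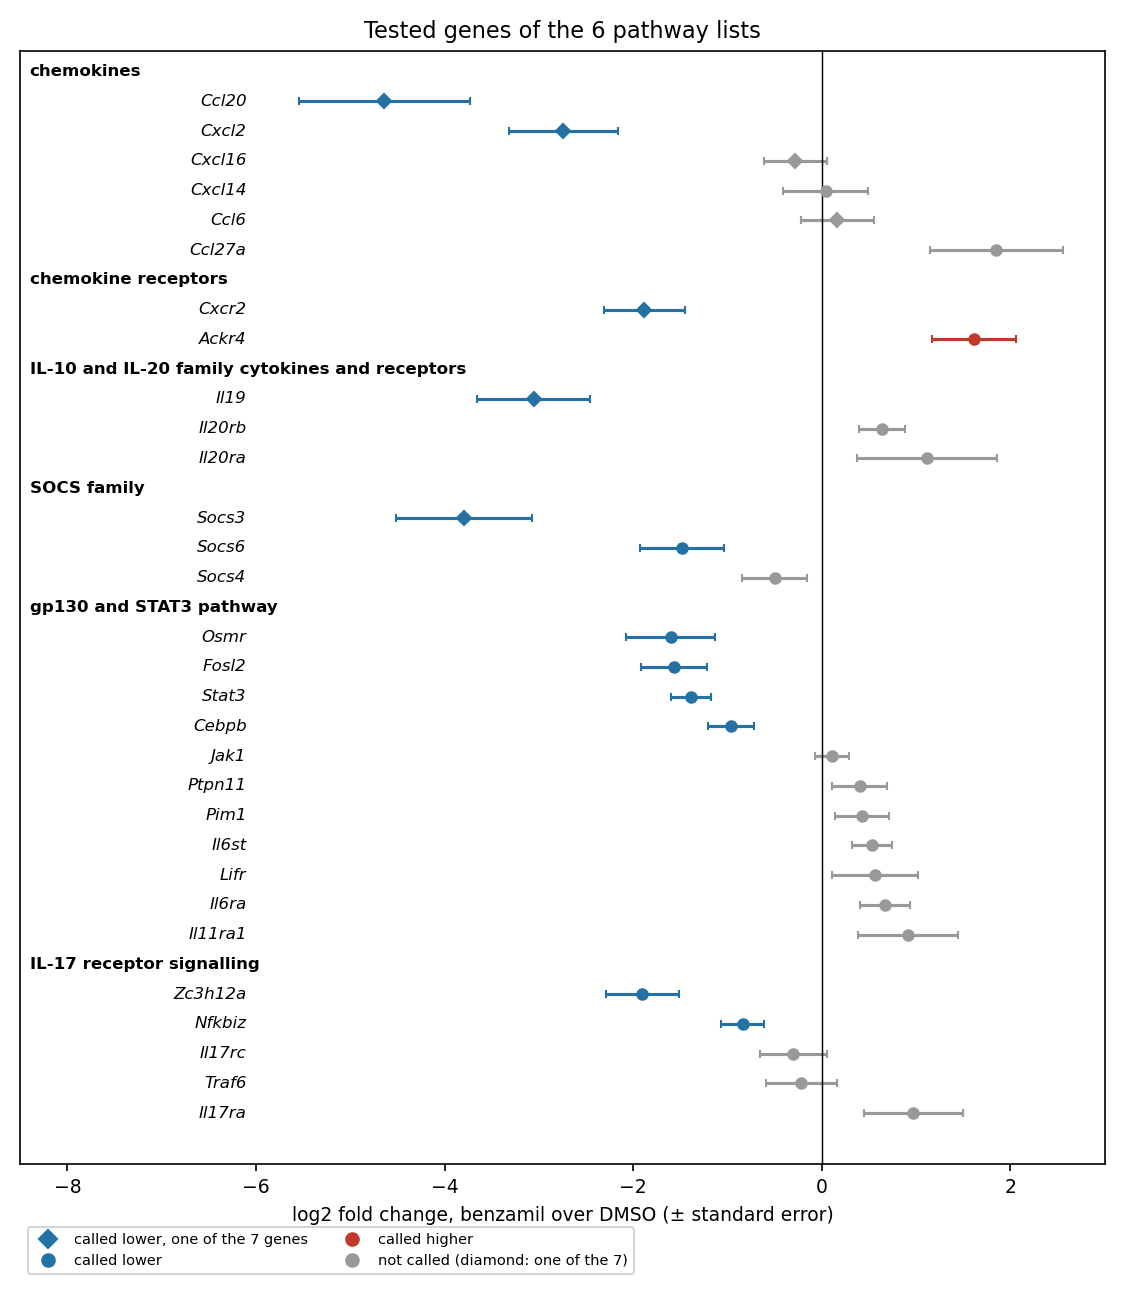
Log2 fold change of benzamil over DMSO (horizontal axis) with its standard error for every tested gene of the 6 pathway lists, coloured by call, with diamonds for the 7 genes. Ccl20, Socs3, Il19 and Cxcl2 lie furthest to the left, and Ackr4 is the only gene of these lists called higher.

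The comparison of DMSO with untreated skin asked how skin given imiquimod with DMSO differed. No group had DMSO alone, so imiquimod and its solvent cannot be told apart. Cxcl2, Cxcr2, Il19 and Socs3 rose, and Ccl20, Cxcl16 and Ccl6 were not called. That is 4 of 7 higher and 0 lower, against 9.93% and 8.45% of all genes tested. The count only describes the chosen genes, since the 4 called reached the filter through the DMSO libraries alone. A lower call was thus hardly open to them. Ccl20, Cxcl2, Cxcr2, Il19 and Socs3 had 0 reads in both untreated libraries, as did 3.64% of tested genes. With 3 reads over the untreated group taken as the limit that a count of 0 allows, a level of up to 21.2 CPM would go unseen. Against this floor, Cxcl2 was at least 3.92-fold higher with DMSO (edgeR adjusted p = 0.0289), Il19 at least 3.58-fold (edgeR adjusted p = 0.0297), Cxcr2 at least 2.96-fold (edgeR adjusted p = 0.0154) and Socs3 at least 1.78-fold (edgeR adjusted p = 0.0477). The exact 95% counting interval of the pooled ratio reaches lower, to 3.15 for Cxcl2, 2.88 for Il19, 2.37 for Cxcr2 and 1.41 for Socs3.

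Ccl20 was at least 1.90-fold higher with DMSO by the same floor, with a lower counting limit of 1.51, and did not pass (edgeR adjusted p = 0.0706). Without DMSO library 4, which had 3 Ccl20 reads, it passed (0.0297). Cxcl16 changed by 1.21 ± 0.77 (edgeR adjusted p = 0.279), with both untreated libraries, 13.5 and 29.7 CPM, under every DMSO library. Ccl6 changed by 0.07 ± 0.73 (edgeR adjusted p = 0.961), and its untreated libraries lay on both sides of the DMSO group.

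The calls against untreated skin rested on 2 shallow libraries. Without untreated library 1 or untreated library 2, 0 of the 7 genes were called. Without DMSO library 1, only Cxcl2 and Cxcr2 were called, and without other libraries the Socs3 call was lost in 4 more fits, those without DMSO library 2 or benzamil library 1, 2 or 3. Both untreated libraries were below every DMSO library for 6 of the 7 genes, all but Ccl6, against 29.5% of tested genes, but nothing is read from this count, since 5 of the 6 have 0 reads in libraries this shallow and reached the filter through other libraries. The exact permutation test of 4 against 2 libraries cannot go below p = 0.133, the value it gave for 6 of the 7 genes.

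The untreated libraries also differed in tissue markers. Summed fibroblast markers (8 of 8 in the tables) were 542 to 1067 CPM with DMSO, 700 to 2279 CPM with benzamil and 8261 and 19005 CPM in untreated skin. Skeletal muscle markers (8 of 8) were 133 to 879, 532 to 1295, and 2521 and 2530 CPM, and keratinocyte markers (10 of 10) were 33793 to 42556, 39335 to 43362, and 18574 and 20423 CPM. Markers of these tissues moved between the treated groups too. With benzamil over DMSO, 7 of 8 tested skeletal muscle markers were called higher and 0 lower, against 9.91% and 12.1% of all genes tested. Their median log2 fold change was 1.55, against -0.01 over all tested genes. DESeq2 called 1 of these 7, Myl1. The fibroblast marker Sparc rose by 1.66 ± 0.30 (edgeR adjusted p = 0.000353), and among keratinocyte markers Krt15 (1.17 ± 0.28, edgeR adjusted p = 0.00421) and Lor (1.03 ± 0.29, edgeR adjusted p = 0.0117) rose while Dsg3 fell (-1.39 ± 0.23, edgeR adjusted p = 0.000126). These differences run alongside all 3 comparisons and their part in the results was not tested. Between DMSO and benzamil, T cell markers (Trbc2 and Thy1, 2 of 15 in the tables) were 92.0 to 106 and 103 to 124 CPM, and macrophage markers (11 of 17) were 105 to 146 CPM with DMSO and 63.7, 83.5, 66.7 and 183 CPM in benzamil libraries 1 to 4. Thus 3 of the 4 benzamil libraries lay below every DMSO library in macrophage markers and library 4 above all of them. In the reported fit, Mrc1 was the only macrophage marker tested and was not called (-1.27). Without the filter, where 7.81% of 9779 genes were called lower, Mrc1 (-1.31 ± 0.45, edgeR adjusted p = 0.0466) and Cd14 (19 reads against 0, edgeR adjusted p = 0.0475) were called lower with benzamil. The other measured macrophage markers were not called, and their changes ran both ways (Adgre1 -1.10, C1qa 1.02). The part of these markers in the results was not tested. Langerhans and dendritic cell markers (5 of 10) were 171 to 239 and 133 to 270 CPM, overlapping between the groups, and cartilage markers (3 of 8) were 66.5 to 91.8 and 47.7 to 114 CPM.

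In the same lists, DMSO over untreated gave further calls. Ccl27a (-3.99 ± 0.84, edgeR adjusted p = 0.00172, and 0.346 without untreated library 2), Ackr4 (-2.93 ± 0.62, edgeR adjusted p = 0.0018) and Il20ra (-3.27 ± 0.92, edgeR adjusted p = 0.0145, lost without either untreated library) fell. Stat3 rose by 1.62 ± 0.35 (edgeR adjusted p = 0.00236, and 0.0617 without untreated library 1), Cebpb by 2.65 ± 0.54 (edgeR adjusted p = 0.00134) and Nfkbiz by 1.68 ± 0.44 (edgeR adjusted p = 0.00955, and 0.117 without untreated library 1). Osmr had 85 reads with DMSO and 0 in untreated skin (edgeR adjusted p = 0.0320), a call lost without either untreated library. Against the floor of 21.2 CPM, Osmr was 2.04-fold higher with DMSO. The upper counting limit of 0 reads in untreated skin is 26.0 CPM, so the fold could be lower. The receptor genes Lifr (-2.99 ± 0.53), Il11ra1 (-2.47) and Il6st (-0.92 ± 0.32) fell. The Il11ra1 call was lost without untreated library 1, and the Il6st call in 6 of the 10 fits that leave out 1 library.

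Benzamil over untreated gave 0 calls among the 7 genes, against 2.44% of tested genes higher and 1.56% lower. edgeR gave 0 of the 7 an unadjusted p under 0.05, and DESeq2 also called 0. The lowest unadjusted p was 0.0767, for Cxcr2, with 14 reads in the benzamil group and 0 in untreated skin. Ccl20, Cxcl2, Il19 and Socs3 had 1, 11, 7 and 2 reads with benzamil, and with the untreated libraries at 0 no difference was detectable at this depth. The 3 comparisons share libraries, so the order of the groups for a gene is not independent evidence.

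Over all 10 libraries, the genes whose centred log2 CPM lay nearest to each of the 7 were found by the mean absolute difference. They were Tgfa (0.40), Socs3 (0.41) and Sat1 (0.49) for Ccl20, Spcs3, Sdhd and Cdc20 (0.42 to 0.54) for Cxcl2, and Mcm6, Cdc20 and Slc5a1 (0.20 to 0.24) for Cxcr2. For Il19 they were Uox, Spcs3 and Lce3b (0.40 to 0.44), and for Socs3 they were Atp5g3, Klf7 and Tiparp (0.29 to 0.33). Cxcl16 lay nearest to Serp1, Capg and Cd3eap (0.16 to 0.19), and Ccl6 to Ces2g, Slc9a3r1 and Timm17b (0.23 to 0.31). Socs3 is thus the only one of the 7 among another's 3 nearest genes. Ccl20 had 0 reads in 3 benzamil libraries and Socs3 in 2, and both had 0 in the 2 untreated libraries. There the log2 value is set by the prior count of 2, so this nearness partly reflects shared zeros. Spcs3 was near both Cxcl2 and Il19, and Cdc20 near both Cxcl2 and Cxcr2.

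**Figure D4:**
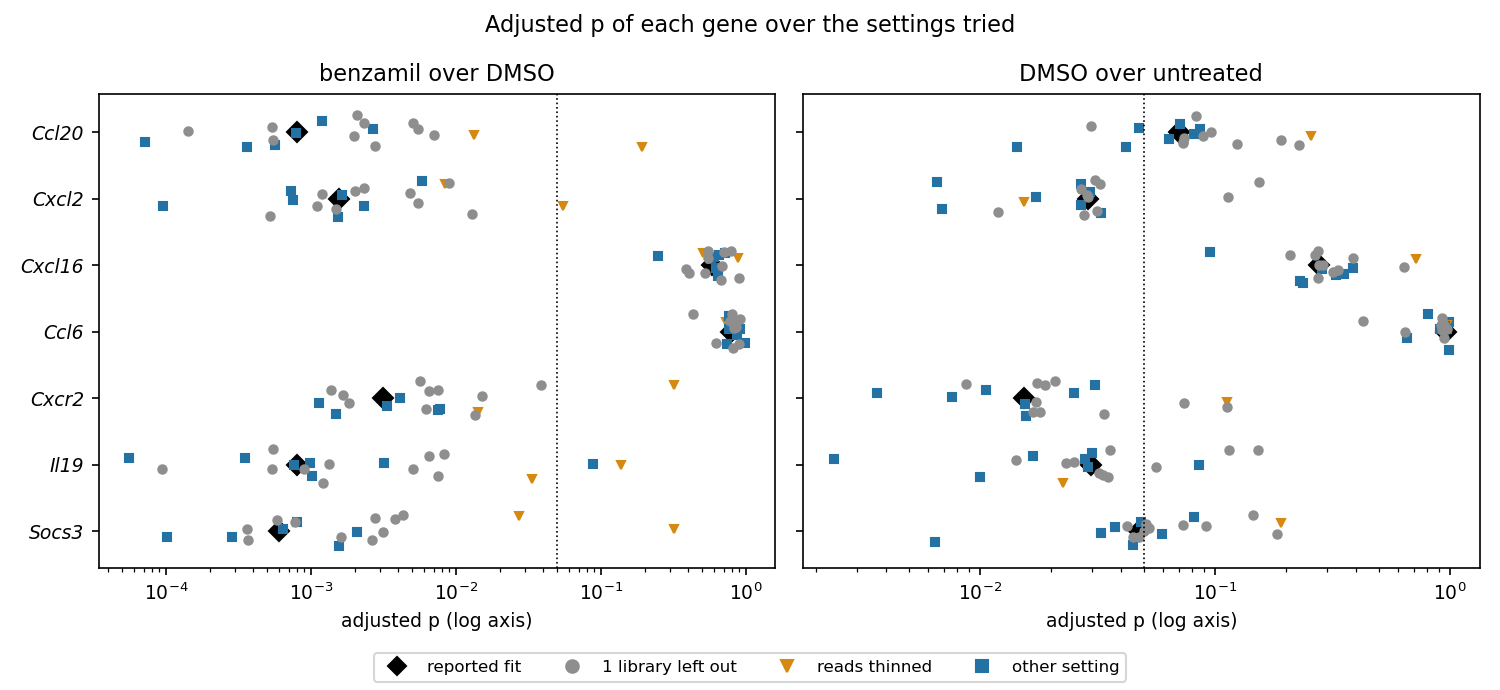
Adjusted p (horizontal axis, log scale) of each of the 7 genes under the reported fit, with 1 library left out, with reads thinned and under the other settings, in panels for the change with benzamil and the change from untreated skin, where the dotted line is 0.05. For benzamil over DMSO the 5 called genes pass in all fits that leave out 1 library and miss the line when all libraries are thinned to the smallest, while Cxcl16 and Ccl6 stay above it throughout.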

How the data were processed

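RNA was measured with a Lexogen 3' mRNA kit with UMIs from 500 ng of RNA, per the labels' protocols. The submitters' processing notes name STAR, featureCounts, DESeq2 and mm10. Versions, collapsing of UMIs and strand of counting: not given in the sources used here. The authors deposited variance-stabilised log2 values in a table of 10653 genes (DMSO and benzamil) and one of 9820 genes (DMSO and untreated), normalized separately. DESeq2 tables that the authors deposited hold a mean signal, log2 fold changes, Wald scores, p-values and adjusted p-values. The authors deposited counts too, in a table whose 61533 identifiers are human.

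The log2 values were inverted to whole reads: 100% came out whole within 0.02 reads, 39116 of 39116 DMSO values were equal in both tables, and the mean reads equalled the authors' mean signal for 100% of genes. The lowest gene total was 10 reads. Joining kept the 9779 genes of both tables and dropped 874 and 41. The planned test assumed counts and was kept on the recovered reads: edgeR 4.0.16 (R 4.3.3), TMM, filterByExpr (34.9 CPM in at least 2 libraries, total of 15 reads), all 10 libraries in 1 fit. It tested 5245 genes. Standard errors are approximate, the absolute log2 fold change over the square root of F. Inversion and test were tested on simulated data. Exact tests used SciPy 1.17.1.

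The 7 genes and the lists were chosen with earlier results of these data known. Named besides the 7 genes are pathway list members called in either comparison with DMSO, up to 3 best-read members of each pathway list, and, for each of the 7 genes with at least 50 reads, the 3 tested genes of most like pattern (log2 CPM with a prior count of 2). DESeq2 1.42.0, limma 3.58.1 on the deposited log2 values, total counts, no filter, each table on its own, thinned reads, ribosomal RNA genes left out, a replicate block and libraries left out in turn were tried as alternatives.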

Additional observations from a re-analysis of the deposited data

Results flagged for a closer look

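In the benzamil group, the highest library stood far from the other 3 for 2 genes, among 14 such tests, of which chance marks about 1 in 20, a rate that does not hold for counts near 0. Ccl20 was at 6.67 CPM, 1 read, in benzamil library 3 and at 0 in the other 3, where a single read in any 1 library would stand apart in this way. Il19 was at 39.7 CPM, 5 reads, in benzamil library 4, against 0 to 6.07 CPM in the other 3.

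The deposited count table, which no comparison used, lists 61533 identifiers, all human and 0 mouse, although the labels give mouse samples. Its library totals ran from 8752 to 136930 counts. SOCS3 held 21 counts in the DMSO libraries (12, 8, 1 and 0 in libraries 1 to 4) and 0 in the benzamil and untreated libraries. CCL20 held 4 counts in the DMSO libraries (2, 0, 2 and 0) and 0 elsewhere. CXCL2, CXCL16, CXCR2 and IL19 held 0 counts in every library.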

How the results depend on the processing

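Of 366 values under alternatives, 9 reversed, 25 lost the call and 4 gained it; thinning the treated libraries was chosen after seeing the data. For benzamil over DMSO, genes called (1155) became 278 with all libraries thinned to 71144 reads, 579 with the 8 treated libraries thinned to 138440 reads, and 659 (without DMSO library 1) to 1333 with 1 library left out. Of the 7 genes, 5 were called in each fit that left out 1 library and with the treated libraries thinned, 0 with all libraries thinned (Cxcl2 0.0546, Il19 0.138, Ccl20 0.191, Cxcr2 and Socs3 0.319), 4 with DESeq2, and 2 with each table on its own, where Ccl20, Cxcr2 and Socs3 missed the filter. For DMSO over untreated, genes called (964) became 1506 with limma, 619 when thinned and 384 (without untreated library 1) to 998 with 1 library left out, and the 4 called of the 7 became 2 with DESeq2, 2 when thinned and 0 to 5 with 1 library left out. For benzamil over untreated, 210 became 88 to 224 (88 without untreated library 1, 110 without untreated library 2), and 0 of the 7 were called in every fit run; limma and each table on its own were not run there, since the tables were normalized separately. Ccl6 reversed: its 0.17 for benzamil over DMSO became -0.075 with total counts, -0.012 with limma and -0.17 to 0.43 with 1 library left out, its change in DMSO over untreated ran from -0.61 to 1.77, and that in benzamil over untreated from -0.47 to 1.94. For benzamil over untreated, DESeq2 gave -0.91 for Ccl20 and -0.25 for Socs3, which have 1 and 2 reads. Apart from the thinned and smaller sets, the cause was not tested.

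Scaling by total counts gave 248 higher and 1009 lower genes for benzamil over DMSO (19.7% of calls higher, against 45.0% with TMM) and moved the median of all tested genes from -0.01 to -0.26; the same 5 of the 7 were called. For benzamil over untreated the split moved from 128 higher and 82 lower to 63 and 105 with total counts and to 81 and 125 with DESeq2, and for DMSO over untreated from 521 and 443 to 329 and 487 with DESeq2. Replicate numbers share only a number: correlations of same-numbered deviations were 0.0686, 0.000688, 0.0406 and 0.0676 between the treated groups. With the replicate block, 1059, 963 and 147 genes were called in the 3 comparisons, and 5, 5 and 0 of the 7, Ccl20 being added in DMSO over untreated (adjusted p = 0.0419). Depth limits what can be said of untreated skin, where 1 read is worth 13.5 or 14.8 CPM.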
